A study of Mus musculus with 25 samples.

Results

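The genes described are Tmem119, Cx3cr1, Siglech, Gpr34, Csf1r, Olfml3, Sparc, Selplg and Aif1, which are used as identity markers of homeostatic microglia. They were taken as a list of symbols, each matched to the gene identifier of the counts table, and make up 9 of its 43411 genes. To ask how loss of Bin1 in neurons affects the surrounding microglia, the study sequenced RNA of sorted microglia, and the counts table holds 23 mice aged 3 months, with a library for each mouse. The labels also name 1 WT female and 1 Het-cKO male that have no column in the table and were not analysed here. WT mice (Bin1flox/wt, without Thy1-Cre; 2 females and 4 males) carry 1 floxed allele and no Cre. Het-cKO mice (Bin1flox/wt, with Thy1-Cre; 4 females and 3 males) carry 1 floxed allele and Cre, and Homo-cKO mice (Bin1flox/flox, with Thy1-Cre; 5 females and 5 males) carry a floxed allele on both chromosomes and Cre. The strains were B6.129S6-Bin1tm2Gcp/J and FVB/N-Tg(Thy1-cre)1Vln/J. This Thy1-Cre line was chosen to delete Bin1 after birth in excitatory neurons of the forebrain, and Cre or recombination in the sorted cells was not tested here. Cells positive for CD11b and intermediate for CD45 were sorted from brains without cerebellum and olfactory bulbs, after enzymatic and mechanical dissociation in the cold. All WT and Het-cKO mice have animal numbers of 1 range (02xx), and the Homo-cKO mice have numbers of 2 others (6 mice in 03xx and 4 in 04xx), so genotype and a cohort of animals cannot be told apart. The WT and Homo-cKO mice also differ both in floxed alleles and in Cre.

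Microglia are the resident macrophages of the brain parenchyma. In the unperturbed brain they express a set of receptors and secreted proteins, only some of which other macrophages have at low levels or lack. This set depends on signals from the surrounding tissue, among them ligands of Csf1r, TGF-beta and contact with neurons through Cx3cr1. Lower levels of such genes are known from microglia in injury and neurodegeneration.

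The 9 genes were abundant in every mouse. Total counts per mouse were between 10812969 and 16734846, and the lowest count of any of the 9 genes in any mouse was 4706, for which counting error alone is 1.46%, so the spread between mice sets the precision. Expression is given as CPM, counts scaled to a common library total after TMM normalization. Per kilobase of exon, which makes levels of different genes comparable, Tmem119 had the highest level of the 9 genes in WT mice (3797 ± 453 CPM per kb, SD, n = 6), at rank 8 of 12843 genes, and Aif1 the lowest (323 ± 44.8 CPM per kb), at rank 108. Between them, in falling order, came Csf1r (mean 2722, range 1979 to 3435 CPM per kb), Selplg (mean 2380, range 2135 to 2839), Cx3cr1 (mean 2074, range 1770 to 2636), Sparc (mean 1965, range 1758 to 2215), Gpr34 (mean 1810, range 1490 to 2134), Siglech (mean 741, range 696 to 828) and Olfml3 (mean 471, range 382 to 539.8). The first 6 overlapped with their neighbours in this order over the WT mice, and Gpr34, Siglech, Olfml3 and Aif1 did not overlap with each other. All 9 genes were therefore expressed in the labelled cell type. Not divided by length, Aif1 was at 415 to 577 CPM in WT mice and each other gene of the 9 at 2352 CPM or more. Summed over 10 genes, neuron markers were lower, at 12.0 to 36.2 CPM in WT mice. Sums of astrocyte markers (10 genes, 238 to 278 CPM) and oligodendrocyte markers (8 genes, 181 to 255 CPM) also lay below Aif1. Border macrophage markers, at 275 to 476 CPM over 10 genes, overlapped with Aif1. Of this sum Stab1, a scavenger receptor that microglia also express, gave 264 to 448 CPM, and Mrc1 had no counts in any mouse.

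Promoter windows from RefSeq (GRCm38.p6; 250 bases before to 50 after a gene's start) were on hand for 5 of the 9 genes, Cx3cr1, Siglech, Olfml3, Sparc and Aif1, and not for Tmem119, Gpr34, Csf1r and Selplg. They were searched on both strands for GAGGAA, the core bound by PU.1 (Spi1), the macrophage lineage factor, and for TGANTCA, the AP-1 site bound by Fos and Jun. The PU.1 core was found once each in the windows of Siglech and Aif1 and in 28.3% of all 32851 windows, and the AP-1 site in none of the 5 and in 7.8% of all windows. Those of Siglech, Aif1 and Olfml3 are shown from 250 bases before to 10 after the start, 5′ to 3′. The PU.1 core is in capitals as it reads on the strand of the gene (TTCCTC). A stretch was shown where at most 30 of its bases lie in an exon of any annotated transcript, whatever the expression of the gene. The windows of Cx3cr1 and Sparc held neither motif. Of their stretches, 260 and 248 bases lie in annotated exons, so they are not shown.
Siglech, chr7:55767934-55768193, plus strand: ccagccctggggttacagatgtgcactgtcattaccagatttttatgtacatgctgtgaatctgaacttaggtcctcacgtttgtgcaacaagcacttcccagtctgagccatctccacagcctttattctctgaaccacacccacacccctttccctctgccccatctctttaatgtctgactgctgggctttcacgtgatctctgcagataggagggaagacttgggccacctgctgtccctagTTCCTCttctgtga
Aif1, chr17:35176043-35176302, minus strand: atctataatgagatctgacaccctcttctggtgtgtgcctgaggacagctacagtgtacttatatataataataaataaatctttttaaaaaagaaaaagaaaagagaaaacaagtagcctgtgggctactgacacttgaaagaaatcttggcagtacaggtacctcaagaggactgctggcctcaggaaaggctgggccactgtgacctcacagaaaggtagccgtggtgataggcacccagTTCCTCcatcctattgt
Olfml3, chr3:103737992-103738251, minus strand: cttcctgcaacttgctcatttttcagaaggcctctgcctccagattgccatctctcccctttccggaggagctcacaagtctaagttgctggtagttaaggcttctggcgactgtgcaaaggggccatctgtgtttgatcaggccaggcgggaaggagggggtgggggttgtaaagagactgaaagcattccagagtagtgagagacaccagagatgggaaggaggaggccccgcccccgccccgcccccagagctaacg

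In Homo-cKO mice 5 of the 9 genes fell against WT mice, namely Sparc, Cx3cr1, Csf1r, Selplg and Tmem119, by 26.0% to 36.8%. The other 4, Gpr34, Siglech, Olfml3 and Aif1, did not pass the test, and none rose. A gene passed at an adjusted p below 0.05 in the quasi-likelihood test of edgeR, adjusted by Benjamini-Hochberg over all 12908 genes tested. Of all genes tested, 7.09% fell and 5.66% rose at this threshold. Scaled by library totals alone, 568 genes fell and 1772 rose, in place of 915 and 730, and the 5 genes fell in that fit as well. Among the 248 genes with an average level at or above that of Aif1, the lowest of the 9, 32.7% fell. For the other comparisons below the share among these abundant genes was not determined. The median log2 fold change was -0.43 over the 9 genes and 0.012 over all genes tested. In bulk samples, fewer cells of a type and less RNA per cell cannot be told apart, and CPM give each gene relative to the rest of its library. P-values set each difference against the spread between mice that remains after genotype and sex are fitted. They do not cover a difference between the ranges of animal numbers, which for Homo-cKO mice cannot be told apart from genotype.

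**Figure D1:**
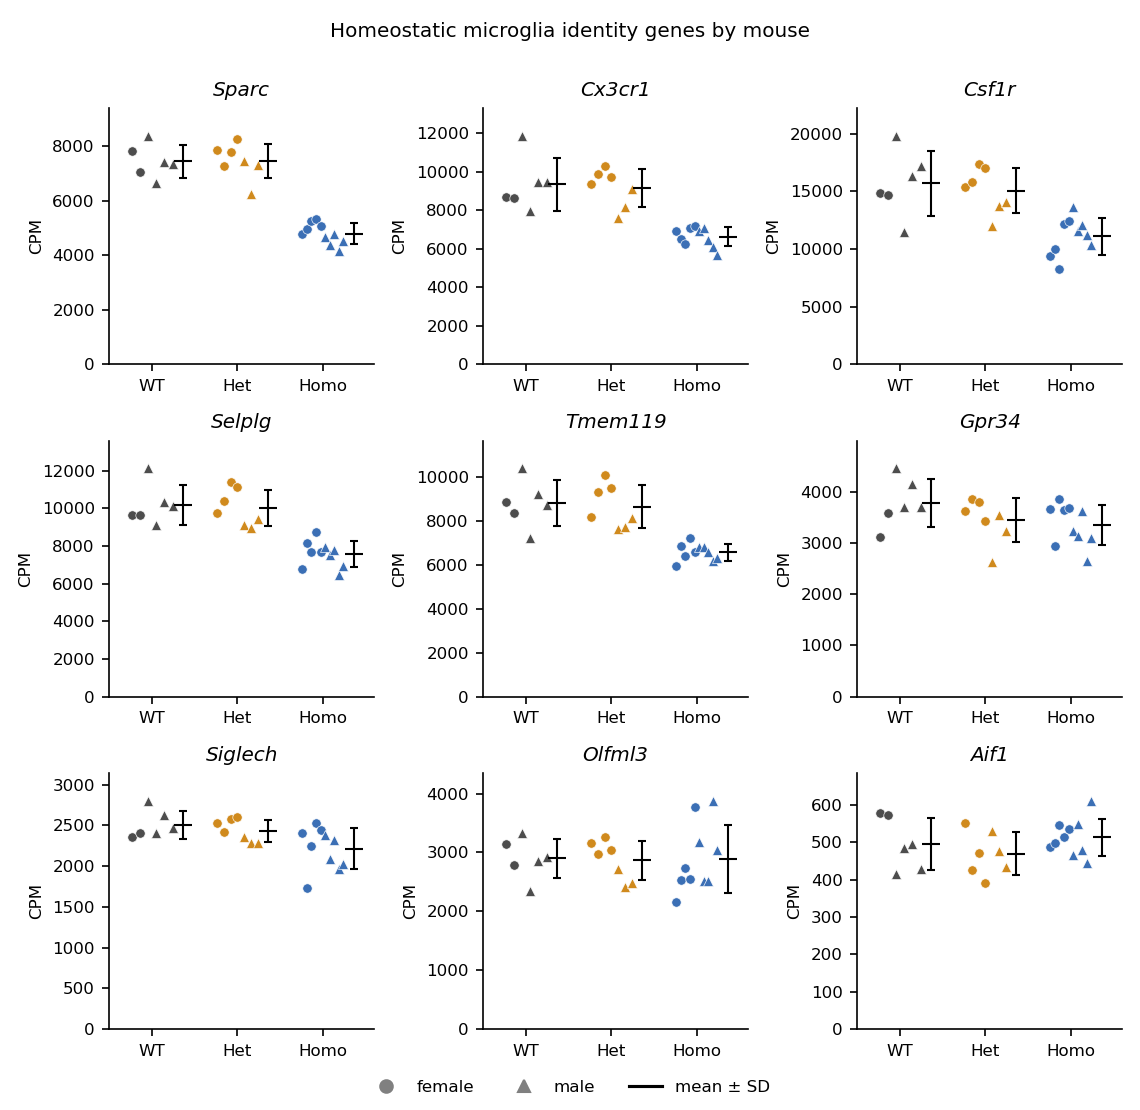
CPM (library-scaled counts) of each of the 9 genes in each mouse, with females as circles, males as triangles, and the mean ± SD of each genotype (WT n = 6, Het n = 7, Homo n = 10). For Sparc, Cx3cr1 and Selplg all 10 Homo-cKO mice lie below the 13 other mice, and for Olfml3 and Aif1 the genotypes overlap.

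Sparc and Olfml3 encode secreted proteins. Sparc is a matricellular glycoprotein that binds collagen and modulates cell adhesion (ENSMUSG00000018593.10, chromosome 11 of GRCm38, 55394500 to 55423183, minus strand). It was at 6658, 7378 and 8390 CPM (lowest, median and highest) in WT mice, at 6236, 7455 and 8252 CPM in Het-cKO mice and at 4149, 4765 and 5337 CPM in Homo-cKO mice. Every Homo-cKO mouse lay below every other mouse. This fall, by 0.66 on the log2 scale (standard error 0.055, edgeR adjusted p = 4.3e-08), was the largest of the 9 genes and the only one beyond 1.5-fold, the study's further condition for a DEG, which 1.75% of all genes met in this direction. Sparc is also among the DEGs that the study listed from these same mice, so its call is not independent evidence. Olfml3, an olfactomedin-like extracellular protein (ENSMUSG00000027848.12, chromosome 3, 103722222 to 103738001, minus strand), was at 2352, 2893 and 3326 CPM in WT mice and at 2419, 2968 and 3260 CPM in Het-cKO mice. In Homo-cKO mice it was at 2158, 2642 and 3881 CPM, a range wider than and containing that of the other mice. The log2 fold change of Olfml3 between Homo-cKO and WT mice was -0.01 (95% interval -0.23 to 0.21, edgeR adjusted p = 0.97), and its sign turned under several alternatives.

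Csf1r and Cx3cr1 are receptors of ligands in brain tissue. Csf1r, the receptor tyrosine kinase for CSF1 and IL-34 on which microglia depend for survival (ENSMUSG00000024621.13, chromosome 18, 61100598 to 61132149, plus strand), lies 28.7 Mb from Bin1 on the same chromosome. It was at 11427, 15569 and 19834 CPM in WT mice, at 11954, 15412 and 17362 CPM in Het-cKO mice and at 8250, 11371 and 13661 CPM in Homo-cKO mice. The genotypes overlapped, and 5 of 10 Homo-cKO mice lay below all others. Csf1r fell by 0.50 on the log2 scale (standard error 0.11, edgeR adjusted p = 0.0031). Of its exon bases, 15.1% overlap with exons of Hmgxb3 on the opposite strand. The libraries do not mark strand, so reads of the genes cannot be told apart there by strand. Hmgxb3 had only 22.7 to 40.4 CPM in WT mice and 29.4 to 48.4 CPM in Homo-cKO mice. Cx3cr1, the receptor of the neuronal chemokine fractalkine (ENSMUSG00000052336.6, chromosome 9, 119901616 to 120069879, minus strand), was at 7976, 9059 and 11873 CPM in WT mice, at 7580, 9367 and 10303 CPM in Het-cKO mice and at 5683, 6715 and 7160 CPM in Homo-cKO mice. Here too every Homo-cKO mouse lay below every other mouse. The fall of Cx3cr1 was 1.43-fold (log2 fold change -0.51, standard error 0.075, edgeR adjusted p = 1.8e-04).

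Tmem119 and Selplg encode membrane proteins and lie next to each other on the minus strand of chromosome 5. Tmem119 (ENSMUSG00000054675.5, 113793729 to 113800516), the transmembrane protein most used to separate microglia from other macrophages, was at 7205, 8771 and 10396 CPM in WT mice, at 7607, 8188 and 10085 CPM in Het-cKO mice and at 5920, 6566 and 7213 CPM in Homo-cKO mice. Of 10 Homo-cKO mice 9 lay below all others, and the tenth overlapped with the lowest WT mouse. The fall of Tmem119 was 1.35-fold (log2 fold change -0.43, standard error 0.068, edgeR adjusted p = 2.9e-04). Selplg (ENSMUSG00000048163.11, 113818536 to 113832644), which encodes the P-selectin ligand PSGL-1, was at 9119, 9900 and 12130 CPM in WT mice, at 8975, 9741 and 11387 CPM in Het-cKO mice and at 6476, 7669 and 8720 CPM in Homo-cKO mice. Selplg fell 1.36-fold with no overlap between Homo-cKO and other mice (log2 fold change -0.44, standard error 0.067, edgeR adjusted p = 2.5e-04). Sparc, Cx3cr1 and Selplg were the 3 genes with all Homo-cKO mice below all others, a pattern that 0.418% of all genes tested had. Its share among genes at or above the average level of Aif1 was not determined.

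Gpr34 and Siglech are surface receptors for which the difference was smaller. Gpr34, a G protein-coupled receptor for lysophosphatidylserine (ENSMUSG00000040229.9, chromosome X, 13632089 to 13640858, plus strand), was at 3115, 3701 and 4459 CPM in WT mice, at 2618, 3550 and 3865 CPM in Het-cKO mice and at 2644, 3431 and 3866 CPM in Homo-cKO mice. Only 3 of 10 Homo-cKO mice lay below all WT mice, and 0 below all others. Its log2 fold change was -0.20 (95% interval -0.38 to -0.02, edgeR adjusted p = 0.14). Siglech, a sialic acid-binding lectin that signals through the adaptor DAP12 (ENSMUSG00000051504.16, chromosome 7, 55768178 to 55778925, plus strand), was at 2355, 2433 and 2803 CPM in WT mice, at 2280, 2417 and 2597 CPM in Het-cKO mice and at 1736, 2285 and 2531 CPM in Homo-cKO mice. The groups overlapped, with 6 of 10 Homo-cKO mice below all WT mice. Siglech had a log2 fold change of -0.19 (95% interval -0.33 to -0.05, edgeR adjusted p = 0.071), and it passed with DESeq2 (adjusted p = 0.044). Aif1 encodes Iba1, the cytosolic calcium- and actin-binding protein that is stained to find microglia in sections (ENSMUSG00000024397.12, chromosome 17, 35170991 to 35176068, minus strand). It was at 415, 489.7 and 577 CPM in WT mice, at 392, 471 and 552 CPM in Het-cKO mice and at 444, 506 and 611 CPM in Homo-cKO mice, and 0 of 10 Homo-cKO mice lay below all WT mice. The log2 fold change of Aif1 was 0.04 (95% interval -0.13 to 0.22, edgeR adjusted p = 0.8).

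Het-cKO mice carry the same Cre as Homo-cKO mice and 1 floxed allele like WT mice, so Homo-cKO mice were set against both. The comparison with Het-cKO mice came from the same fit and shares the Homo-cKO mice with the comparison above. Sparc (log2 fold change -0.63), Cx3cr1 (-0.46), Csf1r (-0.44), Selplg (-0.40) and Tmem119 (-0.39) fell, with edgeR adjusted p between 3.9e-08 and 0.0031, where 11.7% of all genes tested fell. The other 4 did not pass, at -0.13 for Siglech, -0.03 for Gpr34, 0.02 for Olfml3 and 0.13 for Aif1. Between Het-cKO and WT mice 0 of 9 genes passed in edgeR, and 0 had an unadjusted p below 0.05. DESeq2 and limma-voom called 0 of the 9 as well. Of all genes tested, 0.0% passed in edgeR, 998 had an unadjusted p below 0.05, and DESeq2 called 3. Gpr34 had the largest difference between Het-cKO and WT mice (log2 fold change -0.16, 95% interval -0.36 to 0.03, edgeR adjusted p = 0.71). For Sparc the interval was -0.16 to 0.09, for Cx3cr1 -0.22 to 0.12, for Csf1r -0.30 to 0.18, for Selplg -0.19 to 0.11 and for Tmem119 -0.20 to 0.11.

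**Figure D2:**
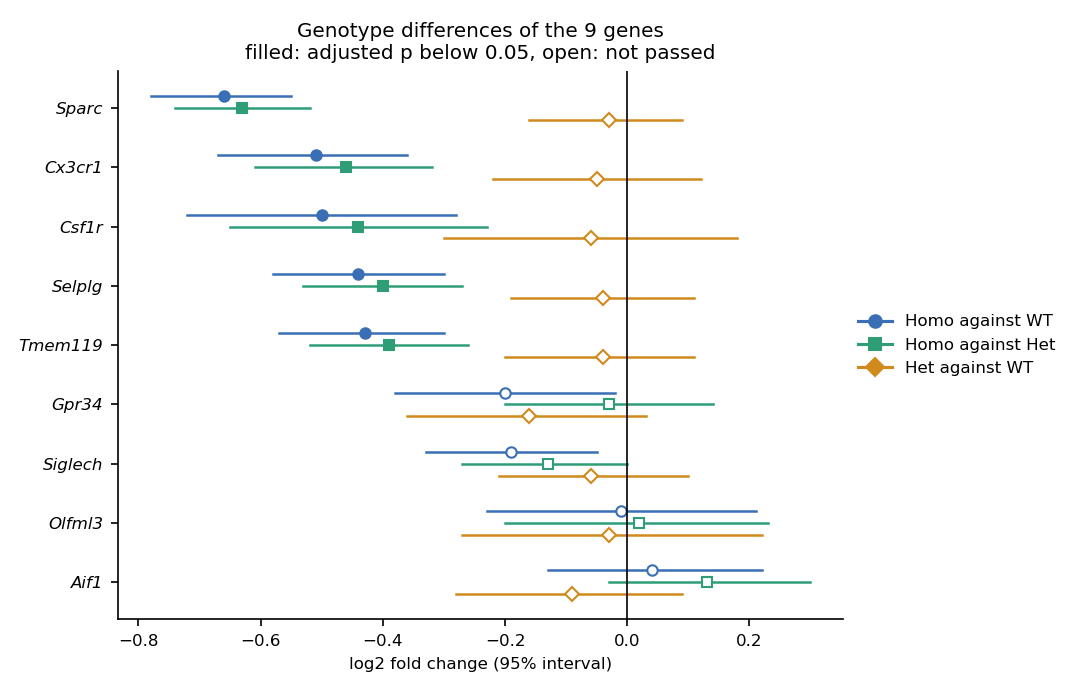
Log2 fold change (x axis) of each of the 9 genes in the 3 genotype comparisons, with 95% intervals as lines and symbols filled where the adjusted p was below 0.05. The 5 genes from Sparc to Tmem119 lie below 0 in both comparisons of Homo-cKO mice, and for Het-cKO against WT mice all 9 values lie between -0.16 and -0.03.

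Summed, the 9 genes made up 5.87% ± 0.447 (SD, n = 6) of all counts in WT mice, 5.85% ± 0.393 (SD, n = 7) in Het-cKO mice and 4.70% ± 0.226 (SD, n = 10) in Homo-cKO mice. The range was 4.39% to 5.04% in Homo-cKO mice and 5.24% to 6.59% in the other 13 mice. Fos, an immediate-early gene that is induced within minutes in activated or handled cells, was at 824 to 1459 CPM in 4 Homo-cKO mice, F1, F2, M1 and M2, and below 10 CPM in all other mice. In these 4 mice the 9 genes made up 4.64% ± 0.213 (SD, n = 4) of counts, and in the other 6 Homo-cKO mice 4.74% ± 0.246 (SD, n = 6). The differences were of similar size without the 4 mice. Against WT mice the remaining Homo-cKO mice had log2 fold changes of -0.64 for Sparc, -0.56 for Cx3cr1, -0.52 for Csf1r, -0.45 for Selplg and -0.45 for Tmem119, with edgeR adjusted p of 0.01 or lower.

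**Figure D3:**
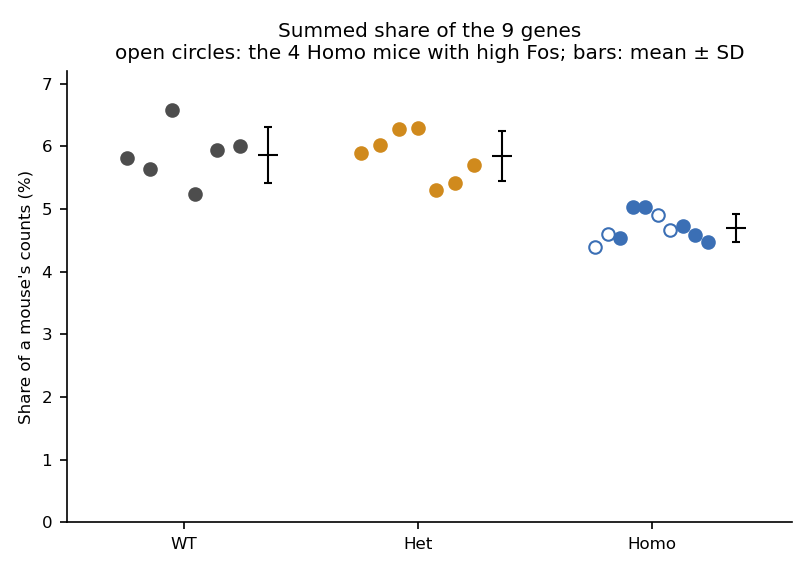
Share of each mouse's counts (%) that the 9 genes held together, by genotype, with the mean ± SD beside the points (WT n = 6, Het n = 7, Homo n = 10) and open circles for the 4 Homo-cKO mice with high Fos. The Homo-cKO mice lie between 4.39% and 5.04%, below all other mice, and the 4 mice with high Fos lie among the other Homo-cKO mice.

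The 2 ranges of animal numbers among Homo-cKO mice gave similar values for the genes that fell. The 4 mice with high Fos are all among the 6 of range 03xx, so the splits by Fos and by range are not separate checks. In mice of range 03xx the log2 fold change against WT mice was -0.66 for Sparc, -0.54 for Csf1r, -0.50 for Cx3cr1, -0.43 for Tmem119 and -0.43 for Selplg, and these 5 passed, where 5.88% of all genes tested fell. In mice of range 04xx Sparc (-0.67), Cx3cr1 (-0.54), Selplg (-0.47) and Tmem119 (-0.44) passed, where 3.52% of all genes tested fell. Csf1r had a log2 fold change of -0.44 there, with an edgeR adjusted p of 0.053, and passed in the fit that held no mice of range 03xx. Between the ranges 0 of 9 genes passed in edgeR, 1 had an unadjusted p below 0.05, and 0.442% of all genes tested passed. The gene with the unadjusted p below 0.05 was Olfml3, which was at 2158 to 3173 CPM in range 03xx and at 2551 to 3881 CPM in range 04xx (log2 fold change 0.35, 95% interval 0.10 to 0.59, edgeR adjusted p = 0.26). No WT or Het-cKO mouse has a number in these ranges, so no comparison of genotypes within a range can be made.

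Within males 6 of 9 genes fell in Homo-cKO against WT mice, where 3.93% of all genes tested fell. These were Sparc (log2 fold change -0.73), Cx3cr1 (-0.59), Selplg (-0.51), Csf1r (-0.46), Tmem119 (-0.45) and Gpr34 (-0.35, edgeR adjusted p = 0.033). Within females, with only 2 WT mice, Sparc fell (log2 fold change -0.55, edgeR adjusted p = 0.0032), where 0.287% of all genes tested fell. The other 4 genes of the main comparison had log2 fold changes of -0.50 for Csf1r, -0.38 for Tmem119, -0.35 for Cx3cr1 and -0.31 for Selplg in females, with adjusted p between 0.075 and 0.15. The difference between the sexes was tested itself, and 0 of 9 genes passed in edgeR, while 1 had an unadjusted p below 0.05. The gene was Gpr34, whose log2 fold change was 0.09 in females and -0.35 in males (difference 0.43, 95% interval 0.11 to 0.75, edgeR adjusted p = 0.91). Of all genes tested 0.0% passed this test of the difference and 644 had an unadjusted p below 0.05. Gpr34 was at 3115 and 3574 CPM in the WT females and at 3693 to 4459 CPM in the WT males. Averaged over genotypes, 0 of 9 genes passed between females and males in edgeR, where 0.0852% of all genes tested passed in either direction, and 1 had an unadjusted p below 0.05 (Sparc, 0.13 higher in females on the log2 scale, edgeR adjusted p = 0.78).

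**Figure D4:**
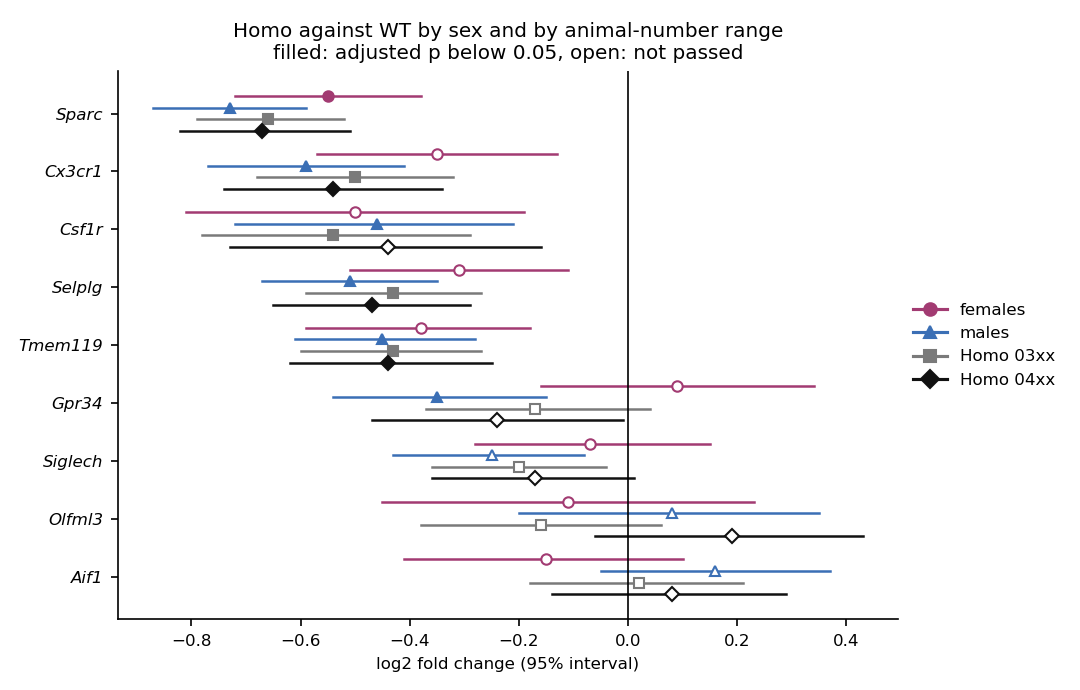
Log2 fold change (x axis) between Homo-cKO and WT mice for each of the 9 genes within females, within males, and for Homo-cKO mice of range 03xx and of range 04xx, with 95% intervals as lines and symbols filled where the adjusted p was below 0.05. The values of the first 5 genes lie between -0.73 and -0.31, and those of Gpr34 lie at 0.09 in females and -0.35 in males.

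Mice of 1 genotype and sex also differed in several of the 9 genes together. After the means of genotype and sex were removed from log2 CPM, 14 of 36 pairs of the genes had a Pearson r above 0.5 over the 23 mice. This is given as a description, since the values of a mouse share a library. The share of such pairs over all genes was not determined, so the count is not read as particular to these 9 genes. The highest was 0.89 between Tmem119 and its neighbour Selplg, followed by 0.81 between Csf1r and Tmem119 and 0.79 between Cx3cr1 and Csf1r. Sparc was most like Selplg (0.72), and Siglech and Gpr34 were most like each other (0.67). Olfml3 was most like Csf1r (0.54) and at -0.11 with Gpr34. Aif1 had a negative r with each of the other 8 genes, from -0.58 with Cx3cr1 to -0.10 with Olfml3. Among 8777 other genes of sufficient level, the mean of the 9 genes was most like Itm2c (0.95), Tapbp (0.94) and Laptm5 (0.92).

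**Figure D5:**
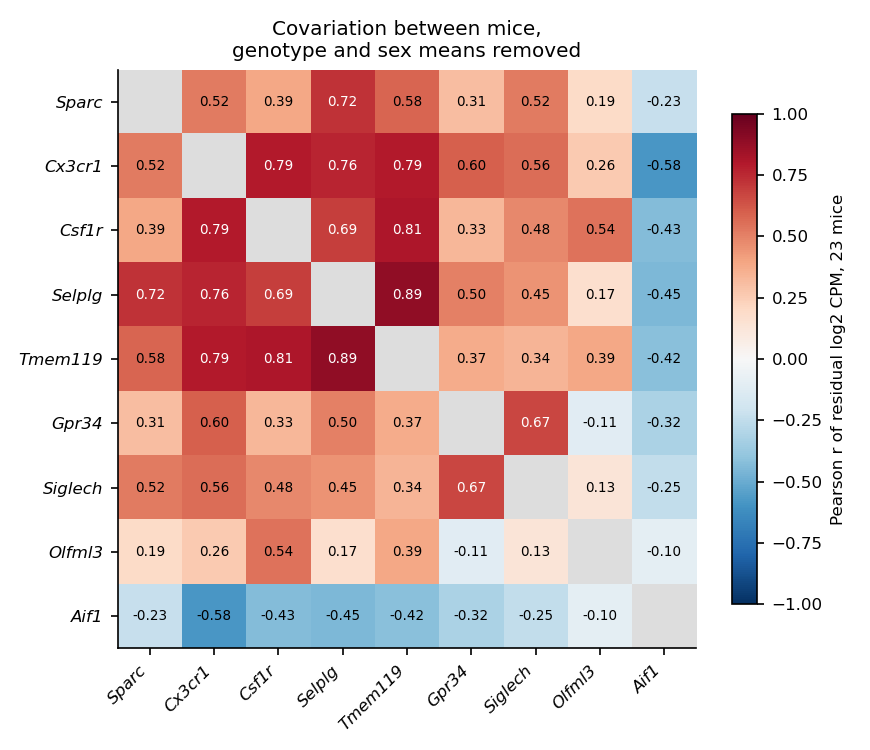
Pearson r between pairs of the 9 genes over 23 mice, from log2 CPM with genotype and sex means removed. Cx3cr1, Csf1r, Selplg and Tmem119 have r from 0.69 to 0.89 with each other, and the row of Aif1 is negative throughout.

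In Homo-cKO against WT mice 7.09% of all genes tested fell and 5.66% rose. Among the 248 genes at or above the average level of Aif1, 32.7% fell. Of 25 other genes of the homeostatic microglia state, all of which were tested, 12 fell and 2 rose. Their median log2 fold change was -0.25 (0.012 over all genes tested). The 6 with the smallest p were Gpr183, an oxysterol receptor (log2 fold change -0.60), Ltc4s, the leukotriene C4 synthase (-0.44), P2ry13, a purinergic receptor (-0.51), Trem2, a lipid receptor that signals through DAP12 (-0.48), Adgrg1, an adhesion receptor (-0.52), and Crybb1, a crystallin (0.41). Their edgeR adjusted p ranged from 3.5e-05 to 0.0017. P2ry12, the ADP receptor of microglial processes, fell to 8256 ± 926 CPM (SD, n = 10) against 10277 ± 1455 CPM in WT mice (SD, n = 6, edgeR adjusted p = 0.01). P2ry12 did not pass against Het-cKO mice (log2 fold change -0.20, edgeR adjusted p = 0.069). The other gene that rose was Cd33, a lectin (log2 fold change 0.21, edgeR adjusted p = 0.026), which is named after its value was seen. In Het-cKO against WT mice 0 of the 25 passed in edgeR. Against Het-cKO mice, with the same Homo-cKO mice, 11 fell and 2 rose, where 11.7% of all genes tested fell and the share that rose was not determined. Without the 4 mice with high Fos, 10 fell and 1 rose against WT mice, and the shares over all genes were not determined there.

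Of 12 lineage factors of microglia, 3 rose and 0 fell in Homo-cKO against WT mice, with a median log2 fold change of 0.06. Of all genes tested 5.66% rose and 7.09% fell. Without the 4 mice with high Fos 1 of the 12 rose, and the share over all genes was not determined there. Against Het-cKO mice 3 of the 12 rose and 2 fell, where 11.7% of all genes tested fell and the share that rose was not determined. Among the factors that rose against WT mice were Runx1 (log2 fold change 0.30, edgeR adjusted p = 0.013) and Smad3, which carries TGF-beta signals (0.25, edgeR adjusted p = 0.011). Spi1, which encodes PU.1, had a log2 fold change of 0.02 (95% interval -0.09 to 0.13), and Sall1, the zinc finger factor that sets microglia apart from other macrophages, one of -0.02 (95% interval -0.15 to 0.11). Of 10 ligands and partners of the 9 genes, 5 were tested and 0 passed in edgeR in Homo-cKO against WT mice. Tyrobp, which encodes DAP12, the adaptor of Siglech, had a log2 fold change of -0.03 (95% interval -0.16 to 0.11), and Csf1, a ligand of Csf1r, one of 0.27 (95% interval -0.07 to 0.61). Against Het-cKO mice, with the same Homo-cKO mice, 2 of the 5 rose, Csf1 (log2 fold change 0.44, edgeR adjusted p = 0.047) and Selenop (0.30, edgeR adjusted p = 0.012), the latter named after its value was seen. The share of all genes tested that rose against Het-cKO mice was not determined, so this count is not read as particular to these genes. Il34, the other ligand of Csf1r, was at 0.275 CPM or less in every mouse.

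Of the antigens used to sort the cells, the gene of CD11b fell and that of CD45 did not pass. Itgam, which encodes CD11b, fell from 1866 ± 381 CPM (SD, n = 6) in WT mice to 1230 ± 152 CPM (SD, n = 10) in Homo-cKO mice (log2 fold change -0.61, edgeR adjusted p = 7.9e-04). Ptprc, which encodes CD45, had a log2 fold change of -0.07 (95% interval -0.24 to 0.10, edgeR adjusted p = 0.64). In the sorted cells Bin1, the targeted gene, was at 699 ± 88.3 CPM (SD, n = 6) in WT mice and 481 ± 130.2 CPM (SD, n = 10) in Homo-cKO mice (log2 fold change -0.60, edgeR adjusted p = 0.0017).

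Markers of other cells moved with genotype in both directions, and their part in the lower levels of the 5 genes was not tested. Of all genes tested 7.09% fell and 5.66% rose in Homo-cKO against WT mice. These shares were not determined without the 4 mice with high Fos. The summed level of 10 neuron markers was 12.0 to 36.2 CPM in WT mice and 4.89 to 8.78 CPM in Homo-cKO mice, and 3 of the 6 tested fell (2 without the 4 mice with high Fos). The sum of 9 monocyte and neutrophil markers overlapped between the genotypes, at 4.63 to 25.3 CPM in WT mice and 11.8 to 65.2 CPM in Homo-cKO mice. Of the 5 tested 1 rose (Ccr2, at 3.68 to 5.70 CPM in WT mice and 7.85 to 20.2 CPM in Homo-cKO mice). Sums of the other lists overlapped between WT and Homo-cKO mice, with medians of 265 and 284 CPM for 10 astrocyte markers, mostly from Slc1a3 (medians of 250.1 and 275 CPM), and ranges of 181 to 255 and 153 to 209 CPM for 8 oligodendrocyte markers, 50.4 to 94.2 and 37.1 to 64.1 CPM for 10 endothelial and mural markers, 275 to 476 and 267 to 441 CPM for 10 border macrophage markers, and 37.1 to 53.8 and 28.5 to 53.3 CPM for 7 lymphocyte markers. Single markers did fall in these lists, and those given here are named after their values were seen. Of 7 tested astrocyte markers 1 fell, Aldoc (log2 fold change -1.61, edgeR adjusted p = 0.0062), with a median log2 fold change of -0.86 over the list. Of 6 tested oligodendrocyte markers 2 fell, Mbp (-0.56) and Mobp (-1.69), with a median of -0.65. Of 4 tested endothelial and mural markers 2 fell, Pecam1 (-0.49) and Pdgfrb (-2.24), with a median of -0.31. Of the border macrophage markers 0 of 9 passed in edgeR, and of the lymphocyte markers 0 of 1. Without the 4 mice with high Fos 1 astrocyte, 0 oligodendrocyte and 1 endothelial or mural marker fell, and 1 border macrophage marker rose. Gad2, Cldn5, Mrc1 and Nkg7 in these lists are listed at 0 in all mice. The 22 immediate-early genes, of which Ier5 and Btg2 are listed at 0, summed to 810.0 to 1018 CPM in WT mice and 976 to 14592 CPM in Homo-cKO mice, and 15 of the 18 tested rose, with a median log2 fold change of 2.13. The Homo-cKO mice F1, F2, M1 and M2 were at 9766 to 14592 CPM and the other 6 Homo-cKO mice at 976 to 1419 CPM. Without these 4 mice 6 of the 18 rose and the median was 0.70.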

How the data were processed

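Microglia RNA-seq from 23 mice was analyzed (6 WT, 7 Het-cKO and 10 Homo-cKO). The deposited table holds expected counts, which the authors obtained with RSEM after alignment of 50-base single-end reads to mm10 (gene model Ensembl R84) and did not normalize for depth or length. Libraries were made with SMARTer cDNA and Nextera XT kits, which do not mark strand. The submitters' processing notes also name DESeq2. One labelled WT female and 1 labelled Het-cKO male, for which the table has no column, were not analysed here.

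The values were rounded to integers. Among the identifiers, 42929 were matched to symbols and 482 were not. Total counts per mouse had a median of 13477985. Genes were kept with filterByExpr by genotype (12908 genes), libraries were scaled by TMM, and genotype and sex were fitted with edgeR 4.0.16 (quasi-likelihood test, Benjamini-Hochberg adjustment) in R 4.3.3. Further fits held sex and genotype as 6 groups, or the animal-number ranges. Standard errors were the log2 fold change divided by the root of the F statistic, and intervals are 95% intervals. A DEG also had a fold change above 1.5. The fits were tested on simulated data. Exon lengths and coordinates came from GENCODE vM21 (GRCm38), and sequences from RefSeq. Log2 CPM used a prior count of 2.

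Members, lists and alternatives were chosen with earlier results of these data known. Named genes were all 9 members, from each list of related genes up to 6 that passed, by smallest p, and a fixed set (P2ry12, Sall1, Spi1, Itgam, Ptprc, Csf1, Il34, Tyrobp, Fos and Bin1), from each list of other cells the gene with the highest level, and for likeness the 3 other genes of mean log2 CPM of at least 3 with the highest r. Some genes that this rule names are not reported here. Alternatives were DESeq2 1.42.0, limma-voom (limma 3.58.1), other scalings and filters, no sex term, robust dispersion, fewer groups or mice, and each mouse left out in turn.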

Additional observations from a re-analysis of the deposited data

How the results depend on the processing

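The 5 genes fell in all 13 alternatives and in all 23 fits that left out 1 mouse, with log2 fold changes from -0.71 to -0.56 for Sparc, -0.56 to -0.41 for Cx3cr1, -0.57 to -0.39 for Csf1r, -0.48 to -0.34 for Selplg and -0.48 to -0.33 for Tmem119. The number of the 9 genes that fell in Homo-cKO against WT mice was 5 to 6 over these fits, the number beyond 1.5-fold 1 to 1 with 1 mouse left out, the number that passed in Het-cKO against WT mice 0 to 0 and the number that fell against Het-cKO mice 5 to 5. Siglech was added with DESeq2 (adjusted p = 0.044) and without Homo-cKO mouse F4 (0.048), and Gpr34 without WT mouse F1 (0.047). Scaling by library totals alone, which moved the median of all genes by 0.10 on the log2 scale, left 0 genes beyond 1.5-fold, with Sparc at -0.56, and made 24.3% of the calls over all genes falls in place of 55.6%. Olfml3 changed sign in that fit (0.09), with Homo-cKO mice of range 04xx only (0.18), without the 4 mice with high Fos (0.07), with WT and Homo-cKO mice alone (0.00) and with 1 mouse left out in 7 cases of 23 (0.01 to 0.04 in these 7, -0.08 to 0.04 over all 23), and it did not pass in any of them. Depth does not limit these genes, whereas the 2 WT females limit the comparison within females. No paired analysis was possible because the labels give no number that pairs mice across genotypes.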

Other observations

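In Homo-cKO against WT mice 5.66% of all genes tested rose and 7.09% fell. Of 20 disease-associated microglia genes, 19 were tested, and 5 rose and 2 fell, with a median log2 fold change of 0.05 (0.012 over all genes tested). The 7 genes were named after their values were seen. Lyz2, lysozyme, had the largest rise (log2 fold change 1.29, edgeR adjusted p = 3.5e-05), and Cst7 (0.91), Axl (0.75), Fth1 (0.49) and Cd63 (0.36) rose as well. Ank (-0.48) and Ctsd (-0.32), a lysosomal protease, fell. In Het-cKO against WT mice 0 of the 19 passed in edgeR.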
